A study of Mus musculus with 12 samples.

Results

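The genes described here are 9 genes of megakaryocytes and platelets, measured in the spleen after the anticancer drug busulfan and fecal microbiota transplantation (FMT). They were chosen by symbol, as granule and surface receptor genes of this lineage, and not by a threshold on their values. They are Pf4, Ppbp, Itga2b, Gp1ba, Gp1bb, Gp9, Gp6, Treml1 and Clec1b, 9 of the 18221 genes in the tables. The RNA came from the spleens of 12 male ICR mice, an outbred stock, and each of the 4 groups held 3 mice. All entered the experiment at 3 weeks of age and were sampled at 8 weeks. Con-sa mice received saline and no busulfan. B-sa mice received a single injection of busulfan (40 mg/kg), an alkylating agent, followed by saline. B+Con-FMT mice received the same injection and then a daily oral dose, for 2 weeks, of small intestinal contents from control donors. B+A10-FMT mice received busulfan and then contents from donors that had been dosed with alginate oligosaccharides (AOS) at 10 mg/kg. The donor material was pooled within each kind of donor, so the 3 mice of an FMT group shared 1 preparation. All groups except Con-sa had therefore received busulfan, and there was no FMT group without it.

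Megakaryocytes are large polyploid cells that shed platelets, and in mice the red pulp of the spleen makes them alongside the bone marrow. The spleen also stores a share of the circulating platelets. The products of the 9 genes act at different steps of platelet function. Pf4 (CXCL4) and Ppbp (the precursor of CXCL7) are chemokines packed into alpha granules and released on activation. Itga2b (CD41) is the alpha chain of the fibrinogen receptor, which bridges platelets to each other. Gp1ba, Gp1bb and Gp9 are chains of the complex that binds von Willebrand factor on a damaged vessel wall. Gp6 binds collagen, Clec1b (CLEC-2) binds podoplanin on lymphatic endothelium and stromal cells, and Treml1 (TLT-1) is held in alpha granules and moves to the surface on activation. In bulk spleen RNA, fewer cells of a type and less RNA per cell cannot be told apart, and RNA of megakaryocytes and of stored platelets is measured together.

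The values are RPKM, reads scaled to the length of the transcript and to the reads of the library, summed over the transcripts of each gene. The tables give no depth. The steps between the lowest values put it at about 13200000 to 14100000 reads per mouse, and no counting error can be given for a single value. Globin genes took 23.3% to 32.4% of the summed RPKM. Marker genes of spleen cell types were present in each mouse, the summed RPKM of 5 B cell genes lying between 1311 and 1901 and that of 5 red pulp macrophage genes between 457 and 834. The 6 marker genes of pancreatic acinar cells, a tissue that lies against the spleen, summed to between 3912 and 5893 RPKM in B+Con-FMT and to between 238.5 and 4741 in the other 9 mice.

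Genes of a lineage are controlled together by transcription factors, among which GATA and ETS family members bind the promoters of many megakaryocyte genes. The promoters of a granule chemokine, of the integrin chain and of a von Willebrand factor receptor chain are shown because the levels of these genes varied together across the mice. Each is the stretch of 250 bases that ends just before a RefSeq start on GRCm38.p6, read 5′ to 3′ on the gene's strand. For Pf4 and Itga2b this is the start of the gene model. For Gp1ba it lies inside the gene model, which a predicted transcript begins farther upstream, so the last bases of that window are within the gene, and positions are counted from the end of the window. Capitals mark every copy, on either strand, of 4 GATA words, which are AGATAA with its variant AGATAG and also TGATAA with its variant TGATAG, and of 2 ETS words, AGGAAG with its variant CGGAAG.
Pf4, chr5:90772185-90772434, plus strand: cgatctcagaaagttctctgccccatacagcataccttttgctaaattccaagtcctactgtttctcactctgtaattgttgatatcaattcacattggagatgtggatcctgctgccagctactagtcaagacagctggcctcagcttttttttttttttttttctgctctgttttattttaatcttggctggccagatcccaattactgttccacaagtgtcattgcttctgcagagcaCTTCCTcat
Itga2b, chr11:102469884-102470133, minus strand: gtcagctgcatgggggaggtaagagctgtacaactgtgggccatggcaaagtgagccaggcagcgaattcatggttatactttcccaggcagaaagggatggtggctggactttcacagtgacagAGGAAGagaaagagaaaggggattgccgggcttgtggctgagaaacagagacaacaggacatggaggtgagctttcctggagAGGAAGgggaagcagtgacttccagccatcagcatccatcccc
Gp1ba, chr11:70638872-70639121, plus strand: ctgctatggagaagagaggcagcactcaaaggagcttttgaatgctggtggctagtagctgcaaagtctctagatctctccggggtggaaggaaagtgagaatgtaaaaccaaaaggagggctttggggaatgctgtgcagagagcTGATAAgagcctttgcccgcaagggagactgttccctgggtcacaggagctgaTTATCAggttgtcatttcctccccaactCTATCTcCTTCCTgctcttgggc
The Pf4 window held 1 ETS word, 9 bases before the start, and no GATA word. The Itga2b window held 2 ETS words, 125 and 43 bases before the start. In the Gp1ba window, 3 GATA words began 104, 51 and 23 bases before the end of the window and 1 ETS word 16 bases before it, the ETS word lying within the gene model, and the words did not overlap. Among the windows not shown, that of Gp9 lay wholly inside its gene model and that of Gp6 partly inside, and both enter the counts that follow. Over the 9 genes, 4 windows held a GATA word, against 26.5% of the 32851 mouse promoter windows of this length in RefSeq. An ETS word was in 5 of the 9, against 39.2%, and both kinds were in 2 of the 9, Gp1ba and Gp1bb, against 9.21%. The word TATAAA, searched in the same way, was in the windows of Ppbp and Clec1b, 2 of 9 against 12.4%. These are matches of letters and not bound sites, and a window without a match says only that the letters are not in it.

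Levels in these spleens spanned more than an order of magnitude between the genes. Ppbp (gene identifier 57349, chromosome 5, 90768518 to 90770063) and Pf4 (56744, chromosome 5, 90772435 to 90773383) were among the abundant spleen transcripts. Their mean RPKM over the 12 mice was 451 and 432, ranks 148 and 158 of the 12671 genes tested. They are neighbors, 2372 bases apart. Gp9 followed at a mean of 58.4 RPKM, Itga2b at 36.0, Treml1 at 26.1, Clec1b at 25.1, Gp1bb at 22.4, Gp1ba at 17.3 and Gp6 at 13.7. Across the 12 mice the ranges of neighbors in this order overlapped, except between the chemokines and Gp9 and between Gp9 and Itga2b. For each gene the highest mouse was between 1.59 and 1.97 times the lowest. All 9 genes were above an RPKM of 9 in each mouse, so the filter on low values (3 or more mice at an RPKM of 1 or higher) removed none of them.

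**Figure D1:**
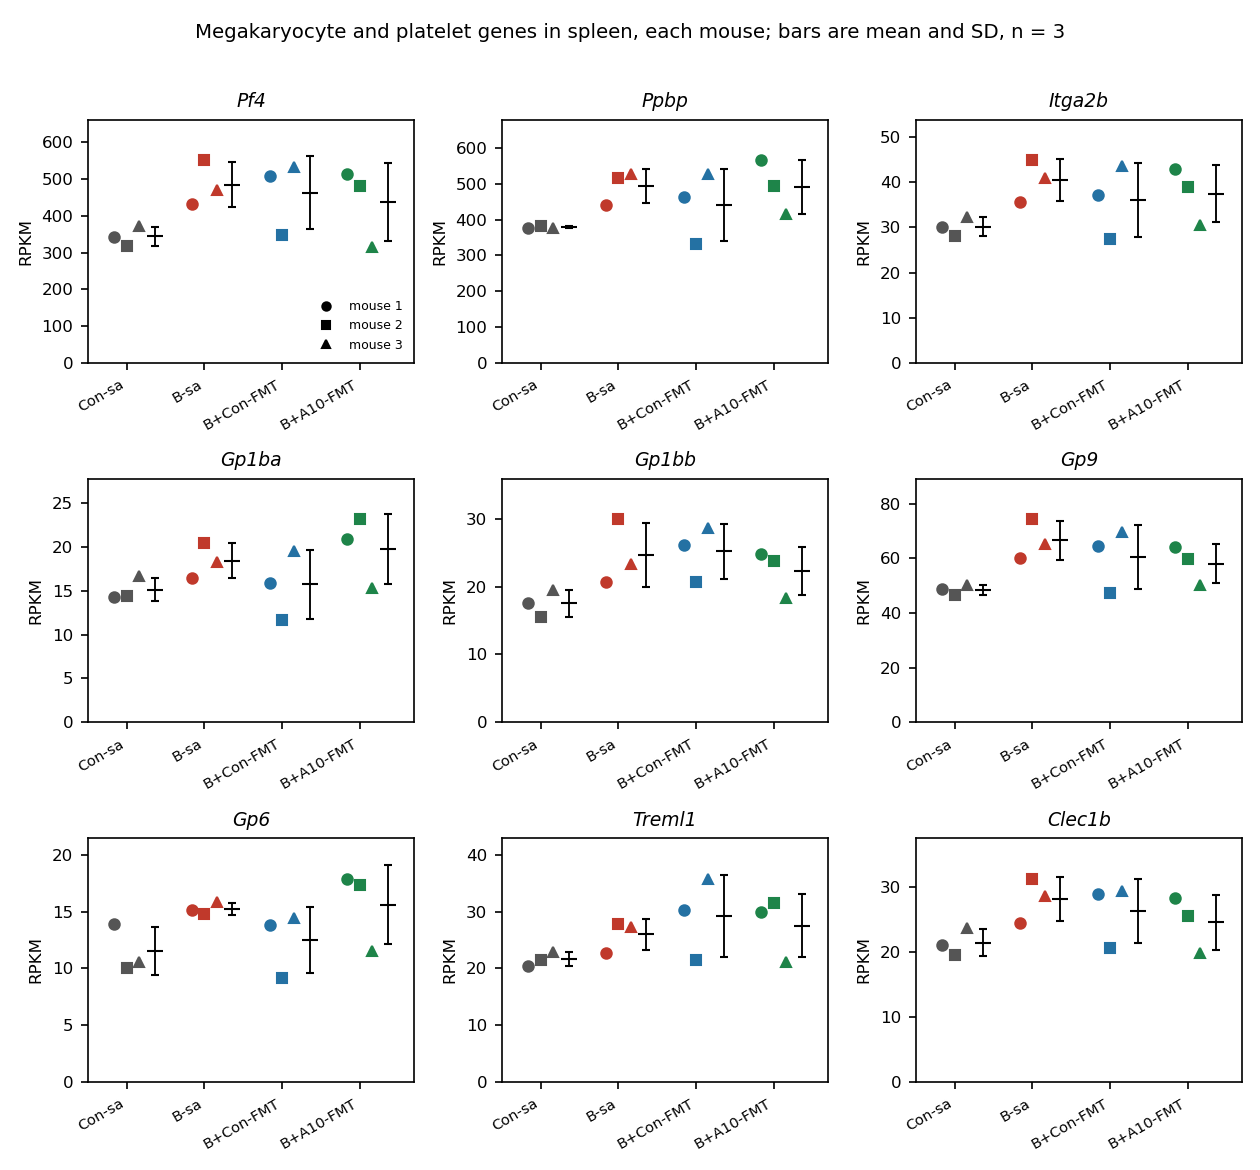
RPKM of the 9 genes in each of the 12 mice by group, with the mean and SD of each group (n = 3) beside the points and an axis from 0 in each panel. The Con-sa mean is the lowest of the 4 group means in all 9 panels, and mouse 2 of B+Con-FMT and mouse 3 of B+A10-FMT are the lowest of their groups in all 9.

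B-sa was compared with Con-sa to see what a single busulfan injection left in the spleen at 8 weeks of age. All 9 genes had a higher mean in B-sa, by 1.19-fold to 1.4-fold (all folds are taken from differences of log2(RPKM + 1)), where 40.2% of all genes tested had one, and 1 of them, Gp9, passed the test. The median log2 difference of the 9 genes was 0.39 (range 0.25 to 0.49), while that of all 12671 genes tested was -0.04, with 5% of genes below -0.35 and 5% above 0.29. In limma's moderated test on log2(RPKM + 1), with Benjamini-Hochberg adjustment over the genes tested, 14.5% of all genes passed an adjusted p of 0.05, and 4.73% passed with a higher level in B-sa. The calls over all genes split into 599 with a higher and 1239 with a lower level, against 966 and 736 with median-of-ratios scaling, under which the 9 genes had a median of 0.44 and Gp9 an adjusted p of 0.0326. The B-sa mice all lay above the Con-sa mice for 7 of the 9 genes, against 11.2% of all genes. At an unadjusted p under 0.05 there were 6 of the 9, against 31.3% of all genes in either direction and 10.7% in the higher direction.

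Of the granule chemokines, Pf4 was at 343, 318 and 371 RPKM in the 3 Con-sa mice and at 432, 551 and 470 in the B-sa mice. It was at 507, 349 and 534 for B+Con-FMT and at 512, 482 and 316 for B+A10-FMT. Every B-sa mouse was above every Con-sa mouse, while each FMT group held 2 high mice and 1 mouse at the Con-sa level. B-sa was at 1.4-fold the Con-sa level (484 ± 60.9 against 344 ± 26.5, SD, n = 3; log2 difference 0.49, 95% interval 0.02 to 0.95), a difference that limma's test did not call after adjustment (adjusted p = 0.142).

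Ppbp was nearly constant in Con-sa, at 376, 383 and 378 RPKM, and was at 440.5, 515 and 528 in B-sa. In the FMT groups it was at 463, 332 and 527 for B+Con-FMT and at 566, 494 and 414 for B+A10-FMT. The B-sa and B+A10-FMT mice all lay above the Con-sa mice, whereas 1 B+Con-FMT mouse lay below them. The ratio of B-sa to Con-sa was 1.30 (log2 difference 0.38, 95% interval 0.03 to 0.73; limma, adjusted p = 0.132).

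Itga2b (16399, chromosome 11, 102453297 to 102469883) is the classical surface marker of the megakaryocyte lineage. It was at 30.1, 28.1 and 32.3 RPKM in Con-sa, 35.6, 44.9 and 40.8 for B-sa, 37.2, 27.4 and 43.5 for B+Con-FMT and 42.9, 38.9 and 30.5 for B+A10-FMT. The B-sa mice were all higher than the Con-sa mice, and 1 mouse of each FMT group fell within or below the Con-sa range. B-sa was at 1.33-fold the Con-sa level (log2 difference 0.41, 95% interval 0.04 to 0.77; limma, adjusted p = 0.121). Its partner chain Itgb3, which other cells also make, was at 32.4 ± 1.6 in Con-sa and 39.4 ± 2.8 in B-sa (log2 difference 0.27, limma adjusted p = 0.189).

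The von Willebrand factor receptor gave the one gene that passed the test. Gp9 (54368, chromosome 6, 87776131 to 87779786) was at 48.7, 46.6 and 50.1 RPKM in Con-sa and at 60.2, 74.3 and 65.5 in B-sa. It was at 64.5, 47.4 and 69.8 for B+Con-FMT and at 64.4, 59.7 and 50.2 for B+A10-FMT. The Con-sa mice were close together and all 3 B-sa mice were above them. Gp9 rose 1.36-fold in B-sa (66.7 ± 7.11 against 48.5 ± 1.77, SD, n = 3; log2 difference 0.45, standard error 0.13, 95% interval 0.15 to 0.74), with an adjusted p of 0.0457 in limma's test. The exact two-sided permutation test gave p = 0.1, the smallest p that 3 mice against 3 allow. The call was near its threshold, and it was lost in 5 of the 6 fits that left out 1 of the 6 mice (adjusted p 0.0425 to 0.165), the exception being the fit without B-sa mouse 1.

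Gp1bb (14724, chromosome 16, 18620319 to 18622403) was at 17.6, 15.5 and 19.5 RPKM in Con-sa and at 20.7, 29.9 and 23.4 in B-sa. It was at 26.2, 20.7 and 28.7 for B+Con-FMT and at 24.8, 23.8 and 18.3 for B+A10-FMT. Both the B-sa and the B+Con-FMT mice lay above all Con-sa mice. B-sa was at 1.37-fold the Con-sa level (log2 difference 0.46, 95% interval 0.11 to 0.81; limma, adjusted p = 0.0782). Gp1bb overlaps Septin5 in the annotation, and the strand used in counting is not given in the sources used here, so reads of the pair may be shared. Septin5, named after its values were seen, was at a mean of 2.5 RPKM in Con-sa and 4.55 in B-sa and was called higher there (log2 difference 0.67, limma adjusted p = 0.0178).

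Gp1ba (14723, chromosome 11, 70639102 to 70643986), the chain that holds the binding site for von Willebrand factor, was at 14.3, 14.4 and 16.6 RPKM in Con-sa and at 16.5, 20.5 and 18.3 in B-sa. It was at 15.9, 11.7 and 19.6 for B+Con-FMT and at 20.9, 23.1 and 15.4 for B+A10-FMT. The lowest B-sa mouse overlapped the highest Con-sa mouse. The B-sa to Con-sa ratio was 1.2 (log2 difference 0.27, 95% interval -0.12 to 0.66; limma, adjusted p = 0.328).

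The remaining receptors had the same sign of difference. Gp6 (243816, chromosome 7, 4362853 to 4397851) was at 13.9, 10.1 and 10.5 RPKM in Con-sa, 15.2, 14.8 and 15.8 for B-sa, 13.8, 9.11 and 14.5 for B+Con-FMT and 17.9, 17.4 and 11.6 for B+A10-FMT. The B-sa mice were close together and above all Con-sa mice (ratio 1.31, log2 difference 0.39, 95% interval -0.03 to 0.82; limma, adjusted p = 0.191). Clec1b (56760, chromosome 6, 129397297 to 129405413) was at 21.1, 19.5 and 23.6 RPKM in Con-sa, 24.5, 31.3 and 28.7 for B-sa, 28.9, 20.5 and 29.3 for B+Con-FMT and 28.3, 25.5 and 19.9 for B+A10-FMT. Its B-sa mice were all higher than its Con-sa mice (ratio 1.30, log2 difference 0.38, 95% interval 0.04 to 0.72; limma, adjusted p = 0.125). Treml1 (71326, chromosome 17, 48359916 to 48367176) was at 20.5, 21.6 and 23.0 RPKM in Con-sa, 22.8, 27.9 and 27.4 for B-sa, 30.3, 21.6 and 35.9 for B+Con-FMT and 29.9, 31.7 and 21.2 for B+A10-FMT. Its B-sa and Con-sa mice overlapped, at 22.8 and 23.0, and the ratio of 1.19 was the lowest of the 9 genes (log2 difference 0.25, 95% interval -0.16 to 0.66; limma, adjusted p = 0.383).

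Genes of other blood lineages also differed between B-sa and Con-sa, and their part in the differences of the 9 genes was not tested. Over all genes, 4.73% were called higher and 9.78% lower in this comparison. All 10 erythroid marker genes had a higher mean in B-sa and 5 were called higher (Klf1, Epor, Tfrc, Rhag and Car2). Their summed RPKM was 2892 to 3244 in Con-sa and 3212 to 4181 in B-sa. The 6 neutrophil markers summed to 2003 to 2079 in Con-sa and to 3574 to 5832 in B-sa, with 2 of the 6 called (Camp and Ltf) and log2 differences from 1.06 to 1.32, all above those of the 9 megakaryocyte and platelet genes. The B cell markers went the other way, 4 of 5 being called lower, and so did the endothelial markers, with 3 of 8 called lower. Of these calls, Tie1 was lost with both other scalings (adjusted p = 0.072 with median-of-ratios scaling), and Klf1, Tfrc and Ltf were lost with equal totals outside the globin genes (adjusted p 0.0508 to 0.0609). For the T cell, red pulp macrophage, basophil and mast cell, stem and progenitor and pancreatic acinar markers limma called 0 in this comparison, with 2 genes of these lists at an unadjusted p under 0.05, against 31.3% of all genes. No marker of these lists was below 0.1 RPKM in all mice.

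**Figure D2:**
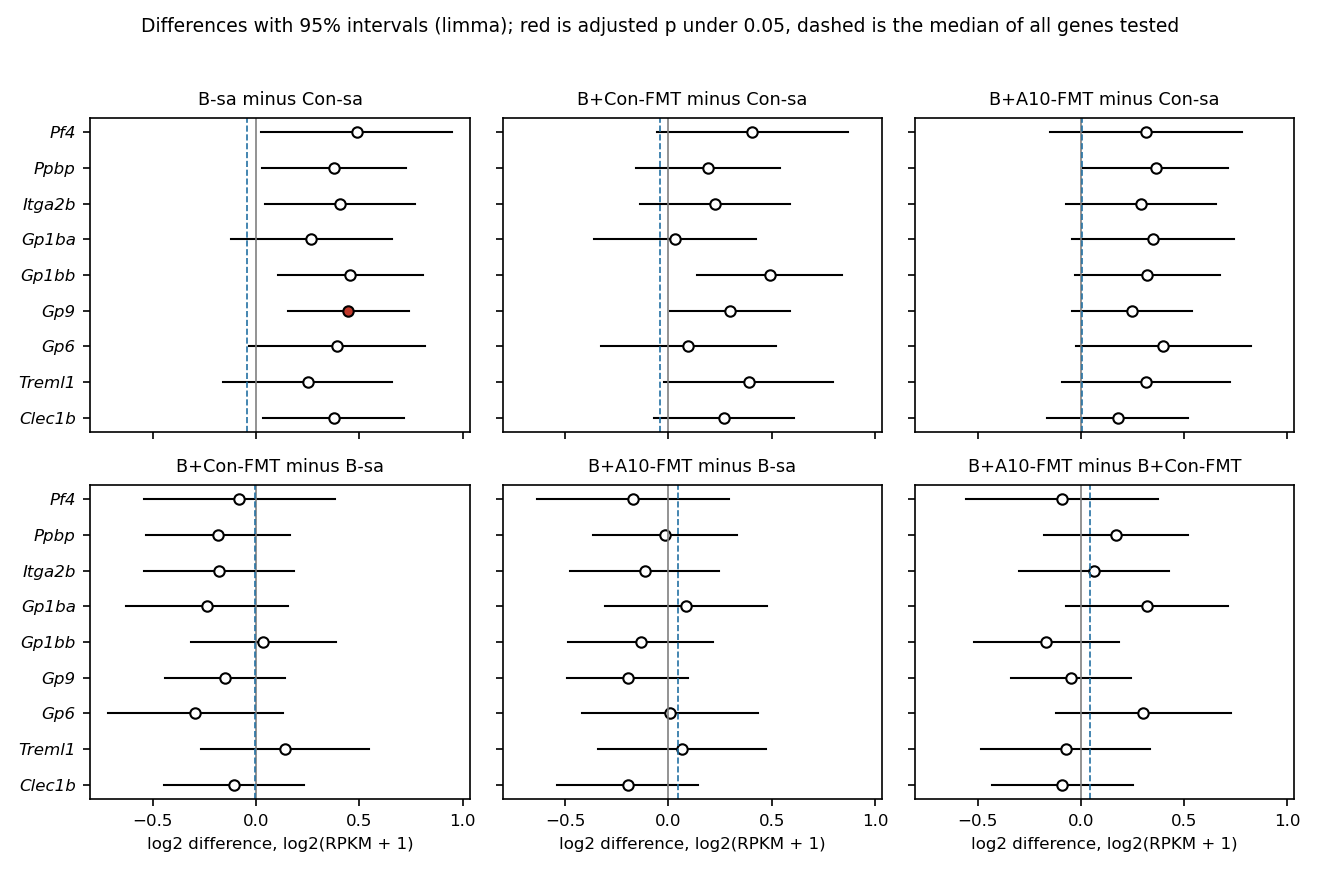
Differences between groups for the 9 genes on log2(RPKM + 1), with points for the estimate and lines for its 95% interval from the limma fit to all 12 mice, in 6 comparisons. Gp9 in B-sa minus Con-sa is the single red point (adjusted p under 0.05), and all 9 estimates are above 0 in each of the 3 comparisons with Con-sa.

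The groups given FMT after busulfan were each compared with B-sa, to see whether transferred gut contents altered the state after busulfan. For the 9 genes 0 were called in B+Con-FMT against B-sa by limma's test, where 0.844% of all genes were called, and 0 of the 9 had an unadjusted p under 0.05, against 18.4%. The log2 differences ran from -0.30 (Gp6) to 0.14 (Treml1), with 2 of 9 above 0, against 48.5% of all genes, and a median of -0.15, against a median of 0.00 over all genes. Without mouse 2 of B+Con-FMT, the lowest of its group for all 9 genes, the median was 0.015, with 6 of the 9 above 0. Without mouse 1 or mouse 3 of that group it was -0.204 or -0.26, with 2 or 0 of the 9 above 0. Leaving out 1 B-sa mouse gave medians of -0.219 to -0.07. Gp6 was the single gene whose B+Con-FMT mice all lay below the B-sa mice, a separation that 9.05% of all genes showed in that direction (ratio 0.815, 95% interval of the log2 difference -0.72 to 0.13; limma, adjusted p = 0.456). In B+A10-FMT against B-sa, 0 of the 9 were called, against 5.27% of all genes, and again 0 had an unadjusted p under 0.05, against 24.5%. The differences ran from -0.20 (Clec1b and Gp9) to 0.08 (Gp1ba), with 3 of 9 above 0, against 62.5% of all genes, and a median of -0.12 against 0.05 over all genes. Without mouse 3 of B+A10-FMT, likewise the lowest of its group for all 9 genes, the median was 0.045, again with 6 of the 9 above 0. Without mouse 1 or mouse 2 of that group it was -0.212 or -0.15, with 1 or 0 of the 9 above 0. Leaving out 1 B-sa mouse gave medians of -0.203 to -0.015. With 3 mice a group the intervals were wide. That of Pf4 in B+A10-FMT against B-sa, from -0.64 to 0.29, held both 0 and a return to the Con-sa level.

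The comparison of the FMT groups with each other addressed the AOS treatment of the donors. For the 9 genes 0 were called by limma's test, against 10.4% of all genes, and 0 had an unadjusted p under 0.05, against 28.9%. Of the 9 differences 4 were above 0, against 61.2% of all genes. Gp1ba and Gp6 had the highest estimates in favor of B+A10-FMT, at log2 differences of 0.32 (95% interval -0.07 to 0.71, adjusted p = 0.256) and 0.30 (-0.12 to 0.73, adjusted p = 0.322). With curated transcripts alone the estimate for Gp1ba was 0.049 (limma, adjusted p = 0.902). Gp1bb had the lowest, at -0.17 (-0.52 to 0.18, adjusted p = 0.514). The median of the 9 genes was -0.05, against 0.05 over all genes. It was -0.21 without mouse 2 of B+Con-FMT and 0.13 without mouse 3 of B+A10-FMT, and with all mice it was 0.009 with equal totals outside the globin genes, so the sign rested on single mice and on the scaling.

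Against the mice that had received no busulfan, both FMT groups had higher means for all 9 genes, where 51.8% of all genes tested were above 0 in B+A10-FMT and 5070 of 12671 in B+Con-FMT. With equal totals outside the globin genes, 8 of the 9 were above 0 in B+Con-FMT. These 2 comparisons use the same 3 Con-sa mice as the comparison of B-sa with Con-sa, so the common sign is not independent evidence. In B+A10-FMT the median log2 difference was 0.32 (range 0.18 to 0.40), with 0 of the 9 called by limma against 0.41% of all genes and 1 of the 9, Ppbp, at an unadjusted p under 0.05, against 7.12% of all genes in that direction. Ppbp and Gp9 were the genes whose B+A10-FMT mice all lay above the Con-sa mice, against 11.7% of all genes (Ppbp ratio 1.29, adjusted p = 0.356, and Gp9 ratio 1.19, adjusted p = 0.431). In B+Con-FMT the median was 0.27 (range 0.03 to 0.49), 0 of the 9 were called against 8.87% of all genes, and Gp1bb and Gp9 had an unadjusted p under 0.05, against 8.57% of all genes in that direction. Gp1bb was the gene whose B+Con-FMT mice all lay above the Con-sa mice, against 10.6% of all genes (ratio 1.41, 95% interval of the log2 difference 0.14 to 0.84; limma, adjusted p = 0.0778). Without mouse 2 of B+Con-FMT, Gp9 was called in this comparison (log2 difference 0.46, adjusted p = 0.0327). A moderated F test of all 4 groups together called 0 of the 9 genes, against 17.1% of all genes, with adjusted p from 0.115 (Gp1bb and Gp9) to 0.351 (Treml1).

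Con-sa had the lowest group mean for 9 of the 9 genes. The highest mean was that of B-sa for 5 genes (Pf4, Ppbp, Itga2b, Gp9 and Clec1b), of B+Con-FMT for 2 (Gp1bb and Treml1) and of B+A10-FMT for 2 (Gp1ba and Gp6). The busulfan groups overlapped for each gene, apart from Gp6 in B+Con-FMT and B-sa, so the order among them was not resolved. The spread within groups differed from gene to gene and group to group. The coefficient of variation was 0.973% for Ppbp in Con-sa and 3.53% for Gp6 in B-sa, and between 12.4% and 24.9% for the 9 genes in the FMT groups.

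In each FMT group 1 mouse lay below the others. Mouse 2 of B+Con-FMT had the lowest value of its group for all 9 genes and mouse 3 of B+A10-FMT had the lowest of its group for all 9, while mouse 3 of B+Con-FMT had the highest of its group for all 9. Averaged over the 9 genes, the low mice were at 0.942 and 1.003 times the Con-sa mean. The other 7 mice given busulfan were at 1.18 to 1.45 times that mean. Without the low mouse the median log2 difference from Con-sa was 0.43 for B+Con-FMT and 0.48 for B+A10-FMT, beside 0.27 and 0.32 with all 3 mice. The low mouse was picked by the values of these same genes, so this rise was fixed in advance. Without mouse 1 or mouse 3 of B+Con-FMT the median was 0.193 or 0.183. Without mouse 1 or mouse 2 of B+A10-FMT it was 0.244 or 0.234. The estimated depth of these mice lay within the range of the others. Their erythroid marker sums were the lowest of their groups (3256 and 3185 RPKM) and their B cell sums the highest (1615 and 1590), whereas their neutrophil sums were the highest of the group in B+Con-FMT (3335) and the lowest in B+A10-FMT (1978). Their pancreatic acinar sums were 5851 RPKM, between the 3912 and 5893 of the other B+Con-FMT mice, and 4741, against 240.1 and 397.3 in the other B+A10-FMT mice. The part of these markers in the low values was not tested.

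**Figure D3:**
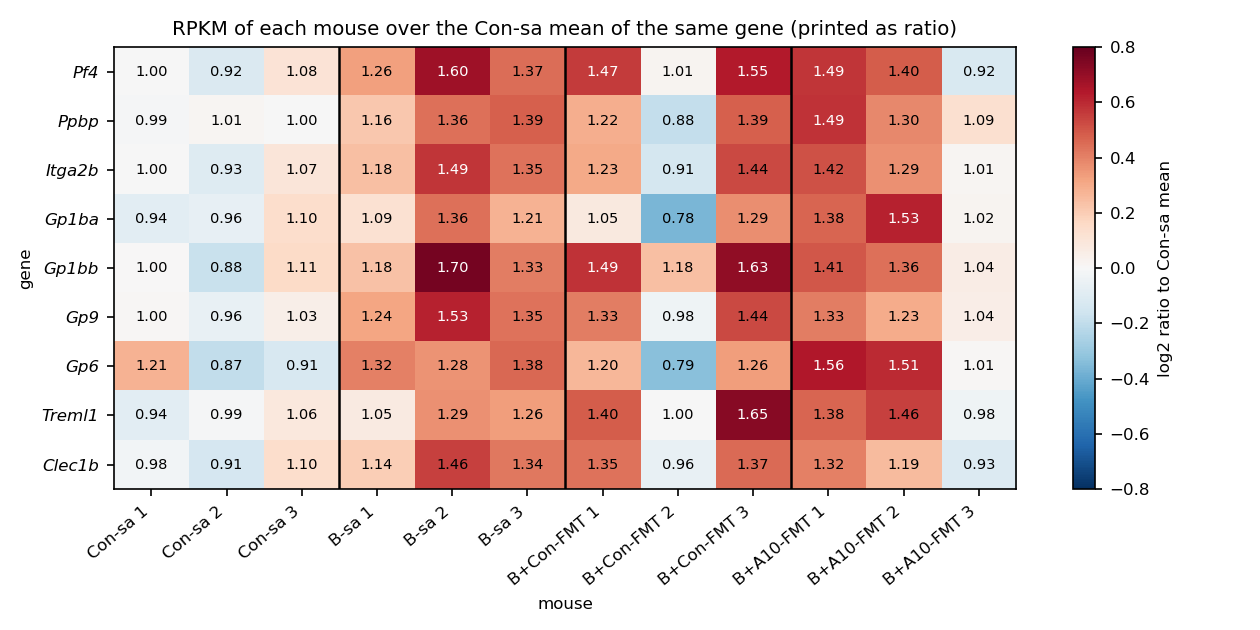
RPKM of the 9 genes in each mouse divided by the Con-sa mean of the gene, with the ratio printed in each cell and the color on a log2 scale. Mouse 2 of B+Con-FMT and mouse 3 of B+A10-FMT average 0.942 and 1.003 over the 9 genes, while the other 7 mice given busulfan are above 1 for all 9.

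The 9 genes therefore varied together across mice. Over their 36 pairs, Pearson's r of log2(RPKM + 1) across the 12 mice was 0.586 (Gp1bb with Gp6) to 0.974 (Pf4 with Clec1b), with a median of 0.857, and Spearman's rho was 0.497 to 0.951. The 12 points include 4 groups. After the group means were removed, r was 0.642 to 0.984 with a median of 0.923. Without the 2 mice farthest from the median of the mean level, r was 0.48 to 0.965. Those were mouse 2 of Con-sa and mouse 2 of B+Con-FMT, while the low mouse 3 of B+A10-FMT was kept. These are descriptions over libraries that share depth and scaling, with no test. Pairs with Gp6, the least abundant of the 9, ran from 0.586 to 0.863, and the chromosome 5 neighbors Pf4 and Ppbp were at 0.863.

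Ratios between the genes within a mouse were also compared. The ratio of Ppbp to Pf4 was 1.11 ± 0.094 in Con-sa, 1.03 ± 0.095 for B-sa, 0.951 ± 0.037 for B+Con-FMT and 1.15 ± 0.15 for B+A10-FMT (SD, n = 3). It was lower in each B+Con-FMT mouse than in any mouse of Con-sa (log2 difference -0.22) or B+A10-FMT (log2 difference 0.26 for B+A10-FMT against B+Con-FMT), each with p = 0.1 by the exact permutation test. Within the von Willebrand factor receptor, whose chains assemble in a fixed proportion, the ratio of Gp1bb to Gp1ba was 1.23, 1.07 and 1.17 in Con-sa, 1.25, 1.46 and 1.27 for B-sa, 1.64, 1.77 and 1.46 for B+Con-FMT and 1.19, 1.03 and 1.19 for B+A10-FMT. It was higher in each B+Con-FMT mouse than in any mouse of Con-sa or B+A10-FMT, the low mouse 2 of B+Con-FMT included. Between the FMT groups this ratio differed by a log2 of -0.51 in B+A10-FMT (exact two-sided permutation test of 3 mice against 3, p = 0.1, the smallest possible). The ratio of Gp9 to Gp1ba went the same way, at 3.22 ± 0.2 in Con-sa, 3.62 ± 0.044 for B-sa, 3.88 ± 0.28 for B+Con-FMT and 2.98 ± 0.36 for B+A10-FMT, also with p = 0.1 between the FMT groups by the exact permutation test. In all, 18 comparisons of ratios were made and none can pass a threshold of 0.05 with 3 mice a group. The overlap of Gp1bb with Septin5 applies to its ratio. Both ratios to Gp1ba were also taken with curated transcripts alone, a step added for the ratios after the data were seen. The FMT groups then overlapped in both ratios. The log2 difference was -0.23 for Gp1bb to Gp1ba (exact permutation test, p = 0.3) and -0.32 for Gp9 to Gp1ba (exact permutation test, p = 0.2). The groups did not overlap in 9 of the 12 comparisons of ratios to Gp1ba with all transcripts and in 1 of 12 with curated transcripts alone, that of Gp1bb to Gp1ba between B+Con-FMT and Con-sa (log2 difference 0.36, exact permutation test, p = 0.1).

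The transcripts listed for each gene bear on these sums. Pf4, Ppbp and Itga2b have 1 transcript each in the tables. In Gp1bb, Treml1 and Clec1b a single curated transcript held at least 95.1%, 96.2% and 97.9% of the RPKM in each mouse. Gp9 was spread over 5 listed transcripts, of which the curated one held 55.8% to 69.3%. Gp1ba was divided about equally between a curated and a predicted transcript, the curated one at 36.8% to 58.6%. With curated transcripts alone, the difference of Gp9 between B-sa and Con-sa was 0.47 (limma, adjusted p = 0.0396), and Gp1ba in B+A10-FMT against B-sa changed sign, from 0.08 to -0.10.

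Further genes of megakaryocytes and platelets were described through 6 lists, written from general knowledge but with earlier results of these data known. Of 16 platelet receptors outside the 9 genes, 13 had a higher mean after busulfan (B-sa), with a median log2 difference of 0.24 against -0.04 over all genes, and 1 was called higher and 1 lower, beside 4.73% and 9.78% of all genes. Gp5, which binds to the von Willebrand factor receptor complex, was at 16.6, 14.9 and 16.1 RPKM in Con-sa and at 20.2, 24.5 and 21.8 in B-sa and rose there (log2 difference 0.46, limma adjusted p = 0.0432). The thromboxane receptor gene Tbxa2r fell in B-sa, from 11.5, 11.4 and 11.4 to 9.51, 9.81 and 9.36 (log2 difference -0.23, adjusted p = 0.045), a call lost with median-of-ratios scaling (adjusted p = 0.0941). Fcer1g, the signaling chain that pairs with Gp6 and is also made by myeloid cells, was the most abundant of the list, at 116 in Con-sa and 155 in B-sa (log2 difference 0.43, adjusted p = 0.184).

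Among 14 genes of granule and secretory cargo, 12 had a higher mean in B-sa, against 40.2% of all genes, with a median of 0.17. Limma called 0 of them, against 14.5% of all genes, and 2 had an unadjusted p under 0.05, against 31.3%. The proteoglycan core protein gene Srgn, which other blood cells also express, was the most abundant at 441 RPKM in Con-sa and 482 in B-sa (log2 difference 0.13, limma adjusted p = 0.316). The 12 genes of granule formation and the platelet cytoskeleton were near all genes, with 4 of 12 above 0 and a median of -0.07 against -0.04, and 2 of them were called lower, where 9.78% of all genes were. Of these, Vipas39, a subunit of the complex that sorts cargo to alpha granules, fell from a mean of 16.1 to 13.9 RPKM (log2 difference -0.20, limma adjusted p = 0.0321). Nbeal2, the gene of gray platelet syndrome, was also called lower (9.17 to 7.79, log2 difference -0.21, adjusted p = 0.0492) and is named outside the rule for named genes. With median-of-ratios scaling neither was called (adjusted p = 0.0935 for Vipas39 and 0.0882 for Nbeal2). Myh9, the nonmuscle myosin gene and the most abundant of the list, was at 114 and 97.7 RPKM (log2 difference -0.22, adjusted p = 0.0795).

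Of 14 signaling and prostanoid genes, 10 had a higher mean in B-sa, against 40.2% of all genes, with a median of 0.14, and 1 was called, against 14.5% of all genes. This was Syk, a kinase that acts below Gp6 and Clec1b and also in B cells, which fell from 145, 146 and 138 RPKM in Con-sa to 116, 102 and 115 in B-sa (log2 difference -0.37, limma adjusted p = 0.0055). Of 10 transcription factor genes of the lineage, 6 were above 0, with a median of 0.07, and 1 was called higher and 1 lower, beside 4.73% and 9.78% of all genes. Gata1, which drives both erythroid and megakaryocyte genes, rose from 61.8, 55.7 and 66.5 RPKM to 78.5, 90.1 and 84.5 (log2 difference 0.46, limma adjusted p = 0.00604). Fli1, an ETS factor that is also made by endothelial and lymphoid cells, fell from 38.7, 39.99 and 41.3 to 35.5, 32.2 and 34.9 (log2 difference -0.22, adjusted p = 0.0231). Nfe2, needed for platelet release and shared with erythroid cells, was the most abundant at 94.3 in Con-sa and 113 in B-sa (log2 difference 0.26, adjusted p = 0.0548).

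The last list held ligands and partners of the 9 genes. Thpo, the gene of thrombopoietin, which is made mainly in liver, was at group means of 0.0467 to 0.133 RPKM and was not tested. Of the other 10 genes, limma called 0 in B-sa against Con-sa, with 0 at an unadjusted p under 0.05 and 5 above 0, against 31.3% and 40.2% of all genes. Col1a2, a chain of the collagen that Gp6 binds, was the most abundant and stayed between 35.8 and 43.6 RPKM in the 12 mice. The podoplanin gene Pdpn, a ligand of Clec1b named like Thpo and the fibrinogen genes outside the rule for named genes, was at 0.85 to 1.23 RPKM in the group means. The fibrinogen chain genes Fga, Fgb and Fgg, which are liver genes, varied from 0.1 to 11.9 RPKM between mice and were highest in Con-sa mouse 3.

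**Figure D4:**
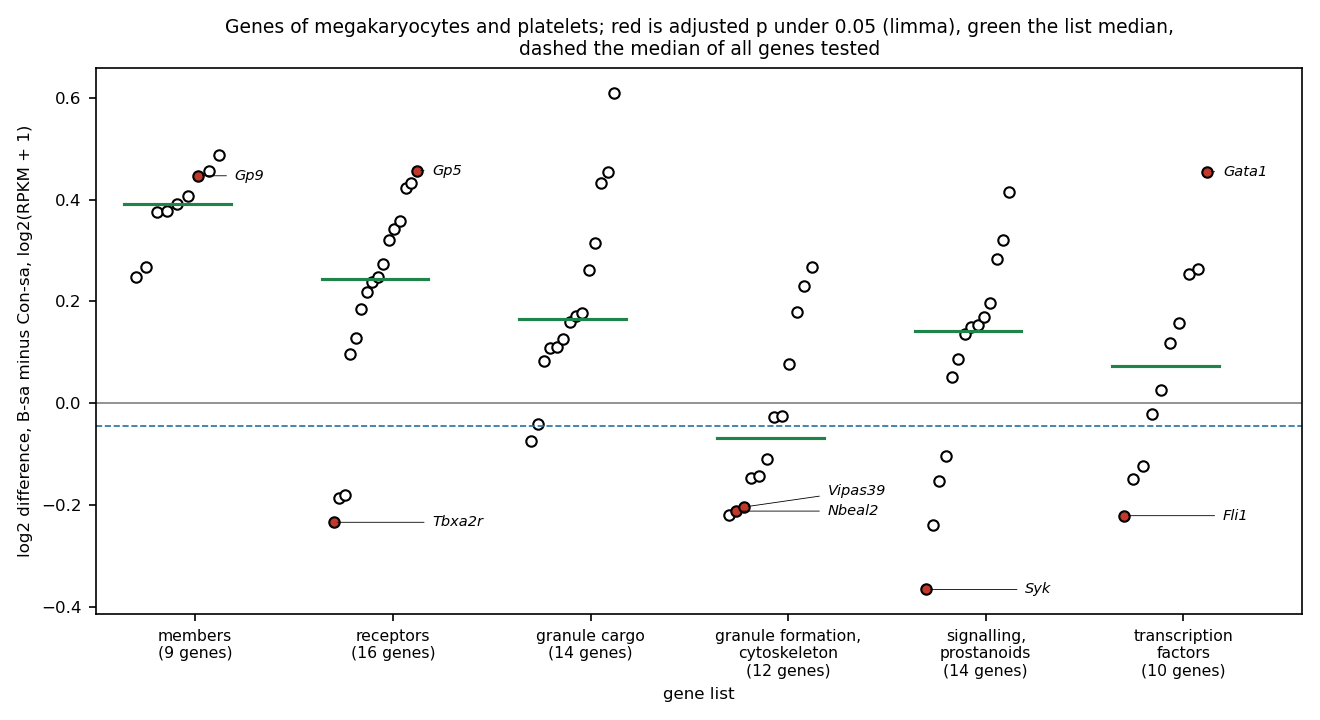
Log2 difference between B-sa and Con-sa for the 9 genes and for each gene of 5 further lists, with red points for genes called by limma, a green line for the median of each list and a dashed line for the median of all genes tested. The 9 genes are all above 0, with medians falling from 0.39 for them through 0.24 for the other receptors to -0.07 for granule formation and cytoskeleton.

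In the comparison of the FMT groups, which called none of the 9 genes, some of these further genes passed the test, with higher levels after B+A10-FMT. Of the 16 receptors 3 were called higher (Itga2, P2ry12 and Tbxa2r), beside 7.58% of all genes. Itga2, the alpha chain of a collagen-binding integrin that is also made by natural killer cells, was at 1.09, 0.97 and 1.26 RPKM in B+Con-FMT and 2.04, 2.16 and 2.17 in B+A10-FMT (log2 difference 0.57, limma adjusted p = 0.00866). P2ry12, the ADP receptor that is also made by macrophages, was at 7.76, 7.08 and 8.39 and at 9.79, 11.7 and 9.0 (log2 difference 0.35, adjusted p = 0.0307). Flna, Myh9 and Cavin2 of the cytoskeleton list, Ptgs1 and Plek of the signaling list and Runx1 of the transcription factors were called higher as well, with log2 differences from 0.16 (Flna) to 0.46 (Cavin2). Plek is named outside the rule. With median-of-ratios scaling the calls of Flna, Myh9 and Plek were lost (adjusted p 0.057 to 0.133), and the calls over all genes went from 960 higher and 352 lower to 551 and 695. Endothelial and red pulp macrophage markers were also higher in this comparison, with 5 of 8 and 4 of 5 called, of which Pecam1, Tie1, Spic and Vcam1 were lost with median-of-ratios scaling (adjusted p 0.0553 to 0.0712). Of the stem and progenitor markers, Kit was called higher (log2 difference 0.42, limma adjusted p = 0.002), with 3 of the 4 tested at an unadjusted p under 0.05, and the B cell marker Pax5 was called lower (log2 difference -0.28, adjusted p = 0.0302). The 6 pancreatic acinar markers had the largest median difference of the marker lists, a log2 of -2.87. Limma called 0 of them, and 4 had an unadjusted p under 0.05, against 28.9% of all genes. The part of these markers in the differences was not tested.

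In the other comparisons the calls in these lists were few. Relative to B-sa, higher calls in B+A10-FMT were Tbxa2r, Flna, Fyb and Runx1, where 4.0% of all genes were called higher. In B+Con-FMT against B-sa and in B+A10-FMT against Con-sa limma called 0 genes of the 6 lists, with 15 and 19 of their 75 genes tested, Vwf of 2 lists counted once, at an unadjusted p under 0.05, against 18.4% and 13.5% of all genes. In B+Con-FMT against Con-sa, Lat and Gata1 were called higher, and Itga2, Tbxa2r, Vipas39 and Fli1 lower, beside 2.3% and 6.57% of all genes. With median-of-ratios scaling the calls of Tbxa2r in both of these comparisons, of Flna and of Vipas39 were lost (adjusted p 0.0613 to 0.117), and no sign changed. Lat, an adaptor below Gp6 that is also a T cell gene, rose by a log2 of 0.63 (46.7 to 72.3 RPKM, adjusted p = 0.0144), in the group whose 5 T cell markers summed to 230.3 to 293 RPKM, against 189 to 222 in Con-sa. Markers of other cells were called in the same comparisons. In B+A10-FMT against B-sa these were 3 of 8 endothelial markers (Cdh5, Kdr and Stab2), 2 of 5 red pulp macrophage markers (Spic and Slc40a1) and Kit, all higher, of which Kit was lost with median-of-ratios scaling (limma, adjusted p = 0.0508). In B+Con-FMT against Con-sa 4 of 8 endothelial markers (Cdh5, Kdr, Pecam1 and Stab2), Kit and the B cell marker Cd79b were called lower and the T cell markers Cd3e and Cd3g higher, and Cdh5 and Kdr were lost with that scaling (limma, adjusted p 0.0538 to 0.0575). In B+Con-FMT against B-sa the T cell marker Cd3e was called higher (log2 difference 0.48, limma adjusted p = 0.0492). The 6 pancreatic acinar markers had a median of 3.23 there, with 0 called and 6 at an unadjusted p under 0.05, against 18.4% of all genes. In B+A10-FMT against Con-sa, Slc40a1 was called higher (log2 difference 0.55, limma adjusted p = 0.0434), a call lost with median-of-ratios scaling (adjusted p = 0.0546). The part of these markers in the differences of these lists was not tested.

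The genes whose pattern over the 12 mice was most like that of the 9 were found by Pearson's r with the mean of their centered and scaled log2(RPKM + 1), among the genes tested. Among the highest were Slc6a4 (0.97), Thbs1 (0.968), Alox12 (0.955), Itgb3 (0.955), Gp5 (0.943), Parvb (0.925), Sec14l5 (0.921), F2rl2 (0.91) and Tmem40 (0.909). Of these, Parvb, Sec14l5 and Tmem40 were in none of the further lists. Slc6a4, the serotonin transporter that fills platelets with serotonin, was at 12.6, 12.3 and 13.7 RPKM in Con-sa, 17.2, 18.9 and 17.8 for B-sa, 18.0, 11.9 and 20.2 for B+Con-FMT and 22.4, 18.1 and 12.9 for B+A10-FMT. It had the same low mice in the FMT groups as the 9 genes. By list, the median r with the 9 genes was 0.841 for the other receptors, 0.664 for cargo, 0.622 for signaling, 0.577 for transcription factors and 0.288 for granule formation and cytoskeleton, against -0.07 for all genes, and it was 0.665 for the erythroid and 0.631 for the neutrophil markers, and -0.63 for the B cell and -0.52 for the pancreatic acinar markers. These values are descriptions over 12 libraries, and genes are not independent replicates.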

How the data were processed

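Spleen RNA of 12 mice was measured. Per the paper's methods, RNA was enriched with oligo(dT) and sequenced on an Illumina HiSeq, and reads were mapped to reference genes with SOAPaligner. The submitters' processing notes instead name HISAT, Bowtie2 and mm10, and the labels name BGISEQ library protocols. The deposited values are RPKM per RefSeq transcript, made by the authors. Transcripts were summed here to 18221 genes, of which the 12671 that reached an RPKM of 1 in 3 or more mice entered the test. The values, as log2(RPKM + 1), went into limma 3.58.1 under R 4.3.3 (trend and robust, 12 mice in 1 fit, group as the only factor, Benjamini-Hochberg adjustment, called under 0.05). Fold changes are on that scale. Single values were compared by exact permutation tests (SciPy 1.17.1). The alternatives were other scalings, pseudocounts, filters, transcripts and samples. The test was checked on simulated data. The 9 genes and the lists were chosen with earlier results of these data known. Genes named beyond the 9 were, per list, the most abundant gene and the genes called in any comparison (at most 4, by smallest adjusted p), and the 10 most alike genes, of which 1 is not reported here. P-values measure the spread between mice. Names, positions and promoters come from RefSeq (GRCm38.p6).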

Additional observations from a re-analysis of the deposited data

How the results depend on the processing

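The count of the 9 genes called in B-sa against Con-sa, 1 in the fit described (Gp9), was 0 without a filter on low values (Gp9, limma adjusted p = 0.0629) and 4 when the other groups were left out of the fit (Gp9, Pf4, Ppbp and Itga2b, adjusted p 0.0233 to 0.0342). It was 0 to 2 when 1 mouse was left out, 2 being the fit without B-sa mouse 1 (Gp9 and Gp1bb). The count in B+Con-FMT against Con-sa was then 0 to 1 and that of the F test 0 to 1, each being 1 without mouse 2 of B+Con-FMT. The counts of the 9 genes in the other comparisons were 0 under each alternative run. All 9 differences between B-sa and Con-sa were above 0 under the 14 alternatives, with medians of 0.33 to 0.47. Other scalings moved the median of all genes by less than 0.1.

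Signs of small differences were less stable. With equal totals outside the globin genes, Gp1bb in B+Con-FMT against B-sa was -0.017, Gp9 in B+A10-FMT against B+Con-FMT was 0.009 and Gp1ba in B+Con-FMT against Con-sa was -0.016. In B+A10-FMT against B-sa, Gp1ba was -0.095 with curated transcripts alone and Gp6 was -0.039 with median-of-ratios scaling. Leaving out 1 mouse gave log2 differences of both signs in the following ranges. For B+Con-FMT against B-sa the ranges were Pf4 -0.196 to 0.11, Ppbp -0.328 to 0.004, Gp1bb -0.079 to 0.177, Gp9 -0.26 to 0.015, Treml1 -0.017 to 0.336 and Clec1b -0.201 to 0.054. For B+A10-FMT against B-sa the ranges were Pf4 -0.303 to 0.045, Ppbp -0.123 to 0.102, Itga2b -0.219 to 0.02, Gp1ba -0.034 to 0.247, Gp1bb -0.248 to 0.009, Gp6 -0.098 to 0.197 and Treml1 -0.041 to 0.239. For B+A10-FMT against B+Con-FMT the ranges were Pf4 -0.283 to 0.127, Ppbp -0.02 to 0.313, Itga2b -0.116 to 0.209, Gp9 -0.213 to 0.063, Treml1 -0.27 to 0.1 and Clec1b -0.251 to 0.048. For B+Con-FMT against Con-sa the ranges were Gp1ba -0.132 to 0.215 and Gp6 -0.017 to 0.291.

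Over all genes, 1838 genes were called in B-sa against Con-sa, but 741 with curated transcripts alone and 972 when the other groups were left out. Between the FMT groups 1312 were called, 2339 with equal totals outside the globin genes and 546 with curated transcripts. For B+Con-FMT against Con-sa the count was 1124, and 1836 with equal totals and 382 with curated transcripts. For B+A10-FMT against B-sa it was 668, and 203 with curated transcripts, 158 when the other groups were left out and 417 with the replicate block. For B+Con-FMT against B-sa it was 107, and 180 with equal totals, 71 without a filter, 25 with curated transcripts and 32 when the other groups were left out. For B+A10-FMT against Con-sa it was 52, and 29 when every mouse had to reach an RPKM of 1 and 1 with curated transcripts. The F test called 2171, and 780 with curated transcripts. Leaving out 1 mouse gave, in the order B-sa against Con-sa, B+Con-FMT against B-sa, B+A10-FMT against B-sa, between the FMT groups, B+A10-FMT against Con-sa, B+Con-FMT against Con-sa and the F test, 510 to 2100, 19 to 468, 106 to 833, 222 to 1159, 1 to 49, 337 to 665 and 1119 to 2698 genes. Median-of-ratios scaling also moved the split of calls, to 632 higher and 499 lower from 292 and 832 for B+Con-FMT against Con-sa and to 287 and 329 from 507 and 161 for B+A10-FMT against B-sa, and equal totals moved it to 2100 and 239 between the FMT groups, to 199 and 1637 for B+Con-FMT against Con-sa and to 67 and 113 from 79 and 28 for B+Con-FMT against B-sa. The cause of these changes was not tested.

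The titles number the mice of each group 1 to 3, but the numbers name different mice. Over the 6 comparisons the mean correlation of same-numbered mice, as deviations from their group means, was -0.17 to 0.18. Single pairs ran from -0.37 to 0.3. With 3 mice a group these values cannot tell whether same-numbered mice shared more than a number. In the fit with a replicate block the count of the 9 genes in B-sa against Con-sa was 0 (Gp9, limma adjusted p = 0.0743), and no other count of the 9 genes changed.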

Other observations

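The genes that lie beside the 9 on the chromosomes, named after their values were seen, had values of their own. Cxcl5 and Cxcl3, chemokine genes on the other sides of Ppbp and Pf4, were at group means of 1.32 to 1.82 and of 0.0 to 0.227 RPKM, far below those of Ppbp and Pf4. Slc25a11, 33 bases from Gp1ba, was at 45.2 RPKM in Con-sa and 45.4 in B-sa (log2 difference 0.00, limma adjusted p = 0.978). Ncr1, a receptor gene of natural killer cells and the neighbor of Gp6 at 17669 bases, was at 12.9 RPKM in Con-sa and 4.07 in B-sa (log2 difference -1.45, limma adjusted p = 0.0022), while Gp6 was at 11.5 and 15.3. Clec12b, which overlaps Clec1b in the annotation, was at 0.0533 to 0.227 RPKM in the group means, against 21.4 to 28.1 for Clec1b.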
